A study of Mus musculus with 7 samples.

Results

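The genes described here are the brakes and the engine of the G1 phase of the cell cycle: 10 genes for CDK inhibitors (Cdkn1a, Cdkn1b, Cdkn1c, Cdkn2c and Cdkn2d), D cyclins (Ccnd1, Ccnd2 and Ccnd3) and G1 kinases (Cdk4 and Cdk6). They were found by gene symbol, and all 10 were present among the 19649 genes of the deposited table of normalized counts. They were measured in long-term haematopoietic stem cells of mice, the cells that renew the blood system, in 3 libraries that carry a mutant Calr allele and 4 wild-type libraries. The mutant libraries, called del52 1 to 3 below (titles DEL52_6244, DEL52_6246 and DEL52_OT1865), are Calr fl/fl with MxCre, given in the labels as Calr del52/del52. The controls, wild-type 1 to 4 (titles Mx1_Cre1, Mx1_Cre2, Mx1_Cre6261 and Mx1_Cre6266), are Calr +/+ MxCre. Calr encodes calreticulin, a chaperone of the endoplasmic reticulum, and del52 is a frameshift allele of the kind found in myeloproliferative neoplasms. Every mouse, controls included, carried MxCre and received pI:pC, a double-stranded RNA mimic that raises interferon and so switches on Cre from the Mx1 promoter. That promoter is not limited to stem cells, and interferon itself is known to bring stem cells into cycle. Cells were sorted 14 days after induction began by CD150 on, CD48 off, Kit and Sca-1 on and lineage markers off. The age and sex of the mice are not known from the labels. Neither do the labels tie each library to an animal of its own, and the p-values below then measure library-to-library spread, which may be technical.

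D cyclins bind CDK4 or CDK6, and the complexes phosphorylate the retinoblastoma protein, which frees E2F factors to switch on the genes of DNA synthesis. Inhibitors of the INK4 family, to which Cdkn2c and Cdkn2d belong, bind CDK4 and CDK6 directly, while the Cip/Kip inhibitors, encoded by Cdkn1a, Cdkn1b and Cdkn1c, act on complexes of CDK2 and also bind D cyclin complexes. In haematopoietic stem cells, which are mostly quiescent, Cdkn1c is known as a keeper of quiescence and Cdk6 as a kinase whose level helps to set how fast a cell leaves it.

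Between 21325340 and 28710304 reads were counted in a library. Wild-type 3 and 4 stood apart from the other libraries: the slope of a library's log2 deviations against log exonic length was 0.81 in each of them, against -0.58 to 0.03 in the other 5, so long genes read higher and short genes lower in that pair. Values against wild-type 1 and 2 and against wild-type 3 and 4 are therefore given apart, and the 3 del52 libraries are shared by both comparisons. The titles of wild-type 3 and 4 and of del52 1 and 2 carry numbers of 1 series, and the labels do not say what this series stands for. The log2 level of Calr itself differed by -0.15 in del52 (exact permutation test, two-sided p = 0.0857 over 35 splits, of which the smallest possible p is 0.0286), which checks the labels weakly since the allele changes coding sequence. The sort markers were read in every library: Slamf1, which encodes CD150, had 1915 to 2407 normalized counts in del52 and 1416 to 1931 in wild-type, and Cd48 had 124 to 164 in del52 and 128 to 241 in wild-type. Kit had 2976 to 6677 in del52. The wild-type pairs had 4150 and 4068 (wild-type 1 and 2) and 26511 and 25305 (wild-type 3 and 4). All 8 markers of long-term stem cells were read in every library, the lowest value being 327 for Fgd5. The summed level of 9 neutrophil genes, a cell type that the sort should remove, was 42930, 6628 and 6056 normalized counts in del52 1 to 3, against 46782, 39804, 83743 and 47650 in wild-type 1 to 4, and its defining marker Ly6g had 0 in del52 3 and 3.57 to 50.9 elsewhere. Its part in the results was not tested. The B cell markers summed to 1301 to 1788 normalized counts in del52 and 909 to 1609 in wild-type. Most of that sum was Cd79b, with 1289 to 1770 in del52 and 866 to 1566 in wild-type, while the B cell factor Ebf1 had 0 to 10.9 in del52 and 3.12 to 6.65 in wild-type. The T cell markers summed to 25.4 to 63.4 in del52 and 35.04 to 63.2 in wild-type. In bulk samples such as these, fewer cells of a type and less RNA per cell cannot be told apart.

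A few of these genes are shown with the 250 bases before an annotated start, or 237 where a longer window would have run into another exon, because Cdk4 and Cdk6 encode the G1 kinases and because Cdkn1a and Cdkn2c have transcripts from 2 starts that are compared below. The sequences are from RefSeq for GRCm38.p6, given 5′ to 3′ on the gene's strand, and 7 of the 10 members had a window there. Capitals mark the E-box CACGTG, which MYC and related factors bind, the letters TATAAA of a TATA box, the E2F site core written TTTCGCG, and the decamer bound by p53.
Cdk4, chr10:127063285-127063534, plus strand: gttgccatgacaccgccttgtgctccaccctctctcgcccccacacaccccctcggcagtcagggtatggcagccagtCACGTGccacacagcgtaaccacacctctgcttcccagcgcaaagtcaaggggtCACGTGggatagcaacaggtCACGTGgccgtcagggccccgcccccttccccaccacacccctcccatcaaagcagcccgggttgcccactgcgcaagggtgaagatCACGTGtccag
Cdk6, chr5:3343643-3343892, plus strand: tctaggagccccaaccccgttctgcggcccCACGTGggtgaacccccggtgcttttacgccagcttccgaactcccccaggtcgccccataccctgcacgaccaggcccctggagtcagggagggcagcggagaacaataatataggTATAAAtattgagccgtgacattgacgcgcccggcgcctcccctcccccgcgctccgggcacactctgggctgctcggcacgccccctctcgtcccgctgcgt
Cdkn1a, upstream start, chr17:29090729-29090978, plus strand: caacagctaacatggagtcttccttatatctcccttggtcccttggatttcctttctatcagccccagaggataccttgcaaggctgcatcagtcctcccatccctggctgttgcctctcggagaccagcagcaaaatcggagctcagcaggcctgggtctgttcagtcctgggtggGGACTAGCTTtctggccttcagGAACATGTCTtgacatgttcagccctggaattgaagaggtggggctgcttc
Cdkn1a, downstream start, chr17:29093519-29093768, plus strand: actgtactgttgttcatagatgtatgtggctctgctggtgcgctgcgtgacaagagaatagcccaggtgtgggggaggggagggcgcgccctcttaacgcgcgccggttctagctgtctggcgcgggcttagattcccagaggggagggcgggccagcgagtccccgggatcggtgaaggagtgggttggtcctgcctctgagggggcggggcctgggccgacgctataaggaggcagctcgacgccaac
Cdkn2c, downstream start, chr4:109665373-109665609, minus strand: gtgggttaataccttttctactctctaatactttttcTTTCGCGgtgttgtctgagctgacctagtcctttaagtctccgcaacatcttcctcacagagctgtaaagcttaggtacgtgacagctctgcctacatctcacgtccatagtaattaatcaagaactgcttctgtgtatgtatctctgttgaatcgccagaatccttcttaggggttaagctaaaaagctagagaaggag

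Both strands were searched. The Cdk4 window held 4 E-boxes and the Cdk6 window 1, and 6.02% of 32851 windows of the same length held at least 1. The Cdk6 window also held a TATA box (12.4% of windows), 98 bases before the start. The upstream Cdkn1a window held 2 p53 decamers (7.13% of windows held at least 1), while the downstream window held none of the capitalised motifs and 2 GC boxes, GGGCGG (32.7% of windows). The downstream Cdkn2c window held 1 E2F core (0.703% of windows), a motif searched for after this sequence had been seen. The marked motifs did not overlap each other in these 5 windows. A match is a description of letters and was not tested as a binding site.

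Read per kilobase of exonic length, the kinase Cdk4 had the highest value of the members in every library. Ccnd1 had the lowest mean and was lowest in 4 of 7 libraries. This length counts every annotated exonic base of a gene, retained introns included, and the order depends on that choice. In the FPKM per transcript described below, Ccnd3 stood above Cdkn2d instead. Ccnd3-205 had 116 to 189 FPKM over the 7 libraries, and Cdkn2d-203, the main Cdkn2d transcript, had 50.1 to 69.7. Cdk4 had 5454 ± 480 normalized counts per kilobase in del52 (SD, n = 3) and 5004 ± 1491 in wild-type (SD, n = 4), above every other member in all 7 libraries. The order by the mean of all libraries was then Ccnd2, Cdkn2d, Ccnd3, Cdkn1c, Cdkn2c, Cdk6, Cdkn1a, Cdkn1b and Ccnd1. Among the D cyclins, Ccnd2 had 1979 ± 424 per kilobase in del52 and 1612 ± 652 in wild-type, Ccnd3 had 894 ± 69.4 in del52 and 1017 ± 87.3 in wild-type, and Ccnd1 had 123 ± 15.2 in del52 and 158 ± 89.9 in wild-type. Among the inhibitors, Cdkn2d led with 1678 ± 161 in del52 and 1468 ± 284 in wild-type, and Cdkn1b had the lowest mean with 181 ± 41.5 in del52 and 146 ± 39.3 in wild-type. Of the neighbours in this order, Cdk4 and Ccnd2, Cdkn2d and Ccnd3, and Ccnd3 and Cdkn1c had ranges over the 7 libraries that did not overlap. The other neighbours did, and Cdk6 stood above Cdkn1a in 4 of 7 libraries, Cdkn1a above Cdkn1b in 3 of 7 and Cdkn1b above Ccnd1 in 5 of 7. The rank of Cdkn1a by its mean rests on its high values in del52 2 and wild-type 3 and 4, and it was the lowest member in del52 3 and in wild-type 1 and 2.

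**Figure D1:**
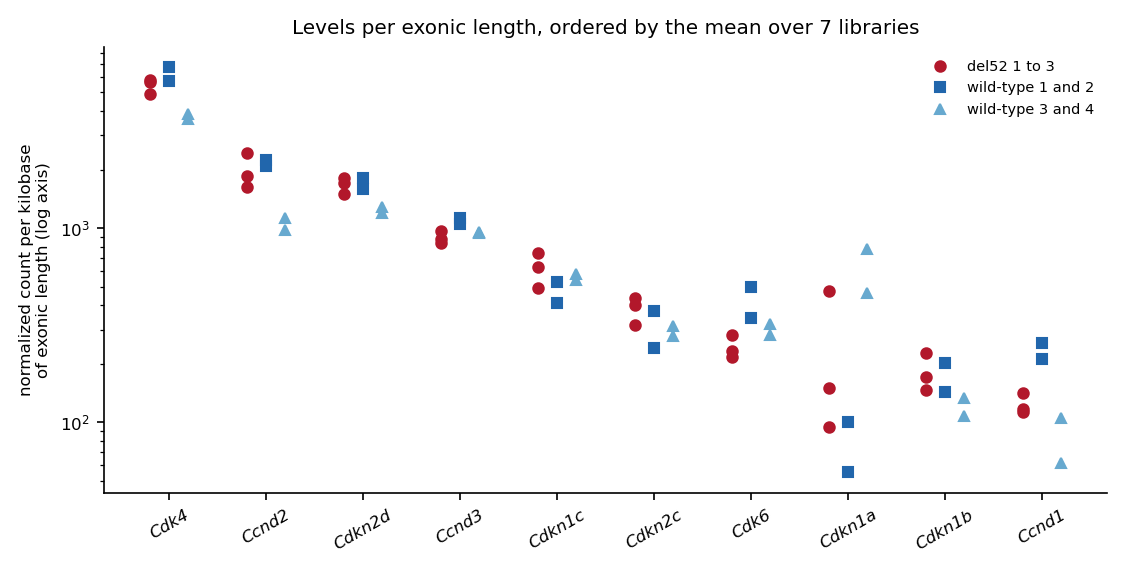
Normalized count per kilobase of exonic length on a log axis for each of the 10 genes, one point per library (circles del52 1 to 3, squares wild-type 1 and 2, triangles wild-type 3 and 4), ordered by the mean over 7 libraries. Cdk4 sits above all others in every library, and the points of Cdkn1a spread from 55.0 to 777.

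Over all 7 libraries, none of these 10 genes passed the test between del52 and wild-type, and the gene that came nearest was Cdk6, which was lower in every del52 library than in any wild-type library. Limma on log2(normalized count + 1), with Benjamini-Hochberg adjustment over all genes tested, called 0 of the 10, where 0% of 16047 genes were called (smallest adjusted p 0.538). At an unadjusted p under 0.05 limma had 1 of the 10 and 8.51% of all genes. EdgeR on recovered reads called 0 genes (10.2% at an unadjusted p under 0.05) and DESeq2 107, or 0.667%, with no member among them. The members had 6 positive and 4 negative differences with a median log2 difference of 0.19, against 0.0004 over all genes tested. Groups did not overlap in 1 of 10 members, Cdk6, against 9.57% of all genes, 4.34% with del52 lower and 5.23% with del52 higher. All members passed the filter on low values, and the lowest value of any of them in a library was 196.

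**Figure D2:**
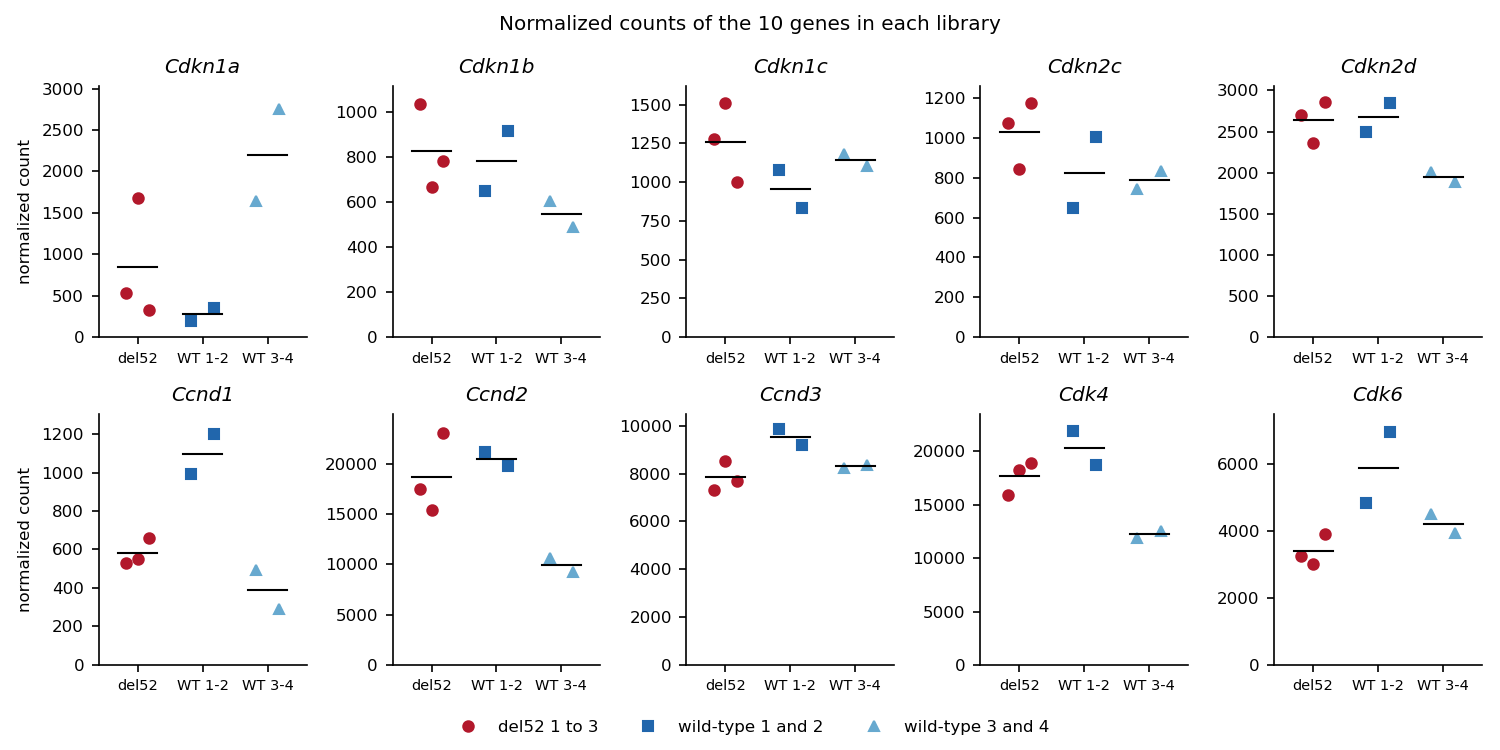
Normalized count of each gene in each library on linear axes from 0 (circles del52 1 to 3, squares wild-type 1 and 2, triangles wild-type 3 and 4; black lines are group means). Cdk6 is the gene whose del52 points lie below every wild-type point. For Cdkn1a, Ccnd1, Ccnd2 and Cdk4 the wild-type pairs lie on either side of the del52 mean.

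Among the Cip/Kip inhibitors, Cdkn1a, which encodes p21 and is the best known target of p53, had a wide spread between libraries in both genotypes. Cdkn1a (ENSMUSG00000023067.14, chr17:29090976-29100727, plus strand) had 532, 1677 and 334 normalized counts in del52 1 to 3, against 196, 356, 1648 and 2759 in wild-type 1 to 4. Del52 2 lay between the members of the high wild-type pair, while del52 1 and 3 stood near the low pair, so the groups overlapped. The log2 difference was -0.17 (SE 0.95, limma adjusted p = 0.932). It was 1.34 against wild-type 1 and 2 (adjusted p = 0.487) and -1.67 against wild-type 3 and 4 (adjusted p = 0.0452). The lower call against that last pair stands beside 22.8% of all genes called lower there, and it was lost without del52 1 (adjusted p = 0.116) or without del52 3 (adjusted p = 0.0734) and with edgeR (adjusted p = 0.0814).

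Cdkn1b, which encodes p27, had a narrower range. Cdkn1b (ENSMUSG00000003031.14, chr6:134920401-134925513, plus strand) had 1033, 663 and 781 normalized counts in del52 1 to 3, against 649, 913, 605 and 490 in wild-type 1 to 4. Every del52 library was above wild-type 3 and 4, but wild-type 2 stood above 2 of the 3. Limma gave a log2 difference of 0.33 (SE 0.26, limma adjusted p = 0.564), with 0.08 against wild-type 1 and 2 and 0.58 against wild-type 3 and 4 (adjusted p = 0.0660). Without del52 2, the last difference was 0.72 and passed (limma adjusted p = 0.00725). With 1 del52 library left out, 4254 to 8760 of 16047 genes were called against wild-type 3 and 4.

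Cdkn1c, which encodes p57, had 1278, 1510 and 999 normalized counts in del52 1 to 3, against 1081, 836, 1185 and 1106 in wild-type 1 to 4 (ENSMUSG00000037664.13, chr7:143458339-143461050, minus strand). The 2 highest libraries were del52 1 and 2, but del52 3 stood below 3 of the wild-type libraries. The log2 difference of 0.25 (SE 0.21, limma adjusted p = 0.571) was close in size to its standard error, and neither pair alone gave a call (0.39 against wild-type 1 and 2, 0.12 against wild-type 3 and 4).

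Both INK4 inhibitors had positive differences in del52, within the spread of the libraries. Cdkn2c, which encodes p18 and restrains the self-renewal of mouse stem cells, had 1075, 847 and 1175 normalized counts in del52 1 to 3, against 650, 1003, 743 and 837 in wild-type 1 to 4 (ENSMUSG00000028551.14, chr4:109660876-109667189, minus strand). All del52 libraries were above 3 of the wild-type libraries, and wild-type 2 lay inside the del52 range. Its log2 difference was 0.36 (SE 0.21, limma adjusted p = 0.538), and it was nearly the same against either pair, at 0.34 against wild-type 1 and 2 and 0.37 against wild-type 3 and 4. Without del52 2, the last difference was 0.51 and passed (limma adjusted p = 0.0137), where fits with 1 del52 library left out called 4254 to 8760 of 16047 genes.

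Cdkn2d, which encodes p19 of the INK4 family, had 2700, 2363 and 2859 normalized counts in del52 1 to 3, against 2495, 2852, 2010 and 1883 in wild-type 1 to 4 (ENSMUSG00000096472.2, chr9:21288410-21291407, minus strand). Wild-type 1 and 2 lay within the del52 range, and wild-type 3 and 4 lay below it. Between genotypes the log2 difference was 0.21 (SE 0.19, limma adjusted p = 0.606), with -0.02 against wild-type 1 and 2 and 0.44 against wild-type 3 and 4 (adjusted p = 0.0455, where 19.7% of all genes were called higher). That call was lost without del52 1 (adjusted p = 0.158), without del52 3 (adjusted p = 0.0759) and with edgeR (adjusted p = 0.0540).

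The 3 D cyclins had differences of both signs. Ccnd1, the cyclin D1 gene, had 528, 552 and 662 normalized counts in del52 1 to 3, against 994, 1198, 495 and 289 in wild-type 1 to 4 (ENSMUSG00000070348.5, chr7:144929931-144939925, minus strand). The del52 libraries lay close together, below both of wild-type 1 and 2 and above both of wild-type 3 and 4. The log2 difference was -0.15 over all libraries (SE 0.46, limma adjusted p = 0.871), -0.92 against wild-type 1 and 2 (adjusted p = 0.102) and 0.61 against wild-type 3 and 4 (adjusted p = 0.0804). The difference from wild-type 1 and 2 passed without del52 2 (-0.88, limma adjusted p = 0.00386) or without del52 3 (-1.01, adjusted p = 0.0184). Against wild-type 3 and 4 it passed without del52 2 (0.65, adjusted p = 0.0466). With 1 del52 library left out, 24 to 769 of 16047 genes were called against wild-type 1 and 2. Such fits called 4254 to 8760 genes against wild-type 3 and 4.

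Ccnd2, the most abundant of the D cyclins here, had 17462, 15345 and 23066 normalized counts in del52 1 to 3, against 21156, 19709, 10608 and 9191 in wild-type 1 to 4 (ENSMUSG00000000184.12, chr6:127125162-127152193, minus strand). Wild-type 1 and 2 stood within the del52 range, and wild-type 3 and 4 were below all of it. Limma gave a log2 difference of 0.37 (SE 0.33, limma adjusted p = 0.596), with -0.15 against wild-type 1 and 2 and 0.89 against wild-type 3 and 4 (adjusted p = 0.00895). Ccnd2 was the 1 member called against wild-type 3 and 4 that kept its call with edgeR and with each del52 library left out in turn. Against that pair 19.7% of all genes were called higher. Fits with 1 del52 library left out called 4254 to 8760 of 16047 genes. The share of all genes that kept a call in this way is not given here.

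Ccnd3, which is needed for the expansion of lymphoid and erythroid precursors, had 7326, 8515 and 7691 normalized counts in del52 1 to 3, against 9876, 9197, 8243 and 8362 in wild-type 1 to 4 (ENSMUSG00000034165.16, chr17:47505051-47599691, plus strand). Its del52 libraries were all below wild-type 1 and 2, and del52 2 was above wild-type 3 and 4. Its log2 difference was -0.18 (SE 0.15, limma adjusted p = 0.571), the smallest standard error among the 10 members.

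The 2 kinases had opposite signs. Cdk4 had 15955, 18283 and 18920 normalized counts in del52 1 to 3, against 21900, 18676, 11908 and 12547 in wild-type 1 to 4 (ENSMUSG00000006728.12, chr10:127063534-127067920, plus strand). The del52 values were above wild-type 3 and 4 and mostly below wild-type 1 and 2, with del52 3 just above wild-type 2. Between genotypes the log2 difference was 0.17 (SE 0.25, limma adjusted p = 0.723), and its sign turned with quantile normalization (-0.01). Against wild-type 1 and 2 it was -0.19. Against wild-type 3 and 4 it was 0.53 (limma adjusted p = 0.0226, where 19.7% of all genes were called higher). That call was lost without del52 1 (limma adjusted p = 0.0579).

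Cdk6 had 3243, 3013 and 3917 normalized counts in del52 1 to 3, against 4837, 6950, 4496 and 3946 in wild-type 1 to 4 (ENSMUSG00000040274.11, chr5:3341485-3531008, plus strand). Its highest del52 library, del52 3, lay just below its lowest wild-type library, wild-type 4, and the other del52 libraries lay well below. The neutrophil gene sum was within the wild-type range in del52 1 and below it in del52 2 and 3, and its part in the Cdk6 values was not tested. The log2 difference was -0.55 (SE 0.22, unadjusted p = 0.0368, limma adjusted p = 0.538), with -0.78 against wild-type 1 and 2 (adjusted p = 0.190) and -0.32 against wild-type 3 and 4 (adjusted p = 0.145). It was negative in all 18 alternative settings and passed in 2 of them, with adjusted p between 0.0392 and 0.918. It was called when the length slope was a covariate (-0.78, limma adjusted p = 0.0392, where 0.791% of all genes were called, 0.174% lower). That slope sets wild-type 3 and 4 apart from the rest. The fit therefore lies close to the comparison with wild-type 1 and 2 and is not a separate result from it. Cdk6 was also called within the title series (-0.43, limma adjusted p = 0.0453, where 37.5% were called, 21.1% lower). Set against wild-type 1 and 2 alone it passed without del52 2 (-0.70, adjusted p = 0.0163) or without del52 3 (-0.89, adjusted p = 0.0325). Fits against that pair with 1 del52 library left out called 24 to 769 of 16047 genes.

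**Figure D3:**
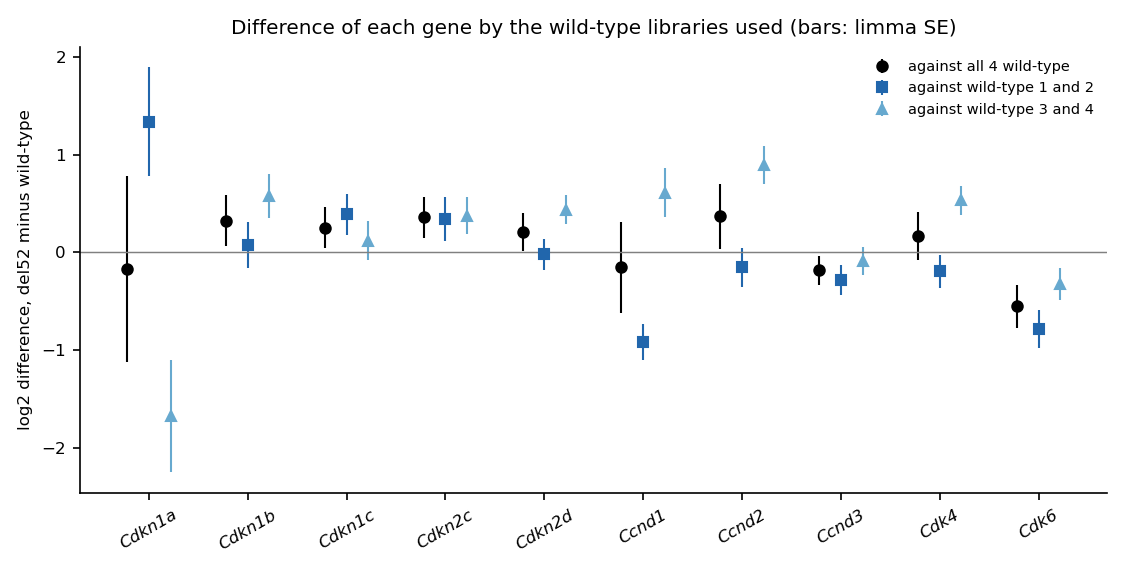
Log2 difference, del52 minus wild-type, of each gene against all 4 wild-type libraries (circles), wild-type 1 and 2 (squares) and wild-type 3 and 4 (triangles), with bars of 1 limma standard error. Cdk6 and Ccnd3 are below 0 in all 3 comparisons, and Cdkn1b, Cdkn1c and Cdkn2c are above 0 in all 3. Cdkn1a, Cdkn2d, Ccnd1, Ccnd2 and Cdk4 lie on both sides of 0.

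The count of members called differed between the wild-type pairs, as did that of all genes. Against wild-type 1 and 2, limma called 0 of the 10 members, where 0.318% of all genes were called. In edgeR the same comparison called 21 genes in all. The groups did not overlap in 3 members, Ccnd1, Ccnd3 and Cdk6, all lower in del52, against 26.4% of all genes, 12.4% lower. Against wild-type 3 and 4, limma called 4 of 10, Ccnd2, Cdk4 and Cdkn2d higher and Cdkn1a lower, where 42.6% of all genes were called. The groups did not overlap there in 7 of 10 members, 6 higher and 1 lower in del52, against 67.6% of all genes, 33.8% in each direction. Among the calls, 3 of 10 members were higher and 1 lower, against 19.7% and 22.8% of all genes. The median log2 difference of the members was -0.09 against wild-type 1 and 2 and 0.41 against wild-type 3 and 4.

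The balance between the kinases was apart between the genotypes, but it has Cdk6 as its denominator and is not a separate result from that of Cdk6. The ratio of Cdk4 to Cdk6 normalized counts was 4.92, 6.07 and 4.83 in del52 1 to 3, against 4.53, 2.69, 2.65 and 3.18 in wild-type 1 to 4. Every del52 library was above every wild-type library, with wild-type 1 the nearest. The ratio averaged 5.27 ± 0.69 in del52 (SD, n = 3) and 3.26 ± 0.88 in wild-type (SD, n = 4). The ratios were computed after the values had been seen and carry no test. Ccnd2 over Ccnd3 was 2.38, 1.80 and 2.999 in del52 1 to 3, against 2.14, 2.14, 1.29 and 1.10 in wild-type 1 to 4, and these groups overlapped. The groups also overlapped for Ccnd1 over Ccnd2, Cdkn1a over Cdkn1b, Cdkn2c over Cdkn2d and Cdkn1c over Cdk6.

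The second deposited table gave FPKM, which are fragment counts scaled for transcript length and library depth, for single transcripts, of which 65 belonged to the 10 members and 45 passed the filter. Limma on log2(FPKM + 1) called 0 of the 45, where 0% of 30156 transcripts were called, and 4 had an unadjusted p under 0.05, against 6.89% of all. Groups did not overlap in 4 of the 45, 2 higher and 2 lower in del52, against 8.09% of all. Transcripts described from here on were picked after their values had been seen. Without wild-type 1 and 2, limma called 8 of the 45, where 22.5% of all transcripts were called, and without wild-type 3 and 4 it called 0 of the 45, where 0.00663% of all were called.

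The 4 tested Cdk6 transcripts all had negative differences over all 7 libraries. Cdk6-201 had 15.5, 16.3 and 17.2 FPKM in del52 1 to 3, against 26.0, 31.3, 21.0 and 18.7 in wild-type 1 to 4 (log2 -0.52, limma adjusted p = 0.661). Cdk6-203, a short form, had 13.2, 11.6 and 13.0 FPKM in del52 1 to 3, against 23.5, 31.4, 15.4 and 16.0 in wild-type 1 to 4 (log2 -0.68, limma adjusted p = 0.661). In both, every del52 library lay below every wild-type library. Cdk6-202, whose start follows the sequence printed above, had 5.80, 4.67 and 7.60 FPKM in del52 1 to 3, against 7.53, 12.7, 8.74 and 7.33 in wild-type 1 to 4, and its groups overlapped. Cdk6-205 had 22.1, 20.9 and 26.1 FPKM in del52 1 to 3, against 30.2, 42.8, 20.9 and 20.7 in wild-type 1 to 4. Its groups also overlapped, and its log2 difference of -0.25 turned to 0.13 without wild-type 1 and 2. The groups that did not overlap with del52 higher were those of Cdkn1c-201, at 22.8, 23.8 and 20.6 FPKM in del52 1 to 3, against 20.1, 15.7, 18.8 and 17.8 in wild-type 1 to 4, and of Ccnd3-211. Ccnd3-211, a minor form with an upstream start, had 6.37, 4.44 and 5.20 FPKM in del52 1 to 3, against 2.74, 2.07, 3.07 and 2.22 in wild-type 1 to 4 (log2 0.84, unadjusted p = 0.00441, limma adjusted p = 0.661). Ccnd3-205, the form with the downstream start, had 116, 147 and 131 FPKM in del52 1 to 3, against 189, 160, 130 and 147 in wild-type 1 to 4, and these groups overlapped.

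The 2 Cdkn2c transcripts differed from each other. Cdkn2c-201, which starts after the downstream sequence printed above, had 14.8, 5.69 and 21.5 FPKM in del52 1 to 3, against 3.59, 6.55, 4.63 and 4.97 in wild-type 1 to 4. Del52 1 and 3 were above every wild-type library, and del52 2 was below wild-type 2. Limma gave a log2 difference of 1.19 (unadjusted p = 0.0163, limma adjusted p = 0.661). Cdkn2c-202, which starts upstream, had 9.96, 10.2 and 8.59 FPKM in del52 1 to 3, against 8.25, 12.7, 9.29 and 10.7 in wild-type 1 to 4 (log2 -0.08, limma adjusted p = 0.890). As a share of the FPKM of the gene, Cdkn2c-201 took 59.7%, 35.9% and 71.4% in del52 1 to 3, against 30.3%, 34.03%, 33.3% and 31.7% in wild-type 1 to 4. All del52 shares were above all wild-type shares, with del52 2 close to them. Transcripts of 1 gene share most of their bases, so these shares rest on the authors' assignment of reads by Cufflinks, with no error given.

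**Figure D4:**
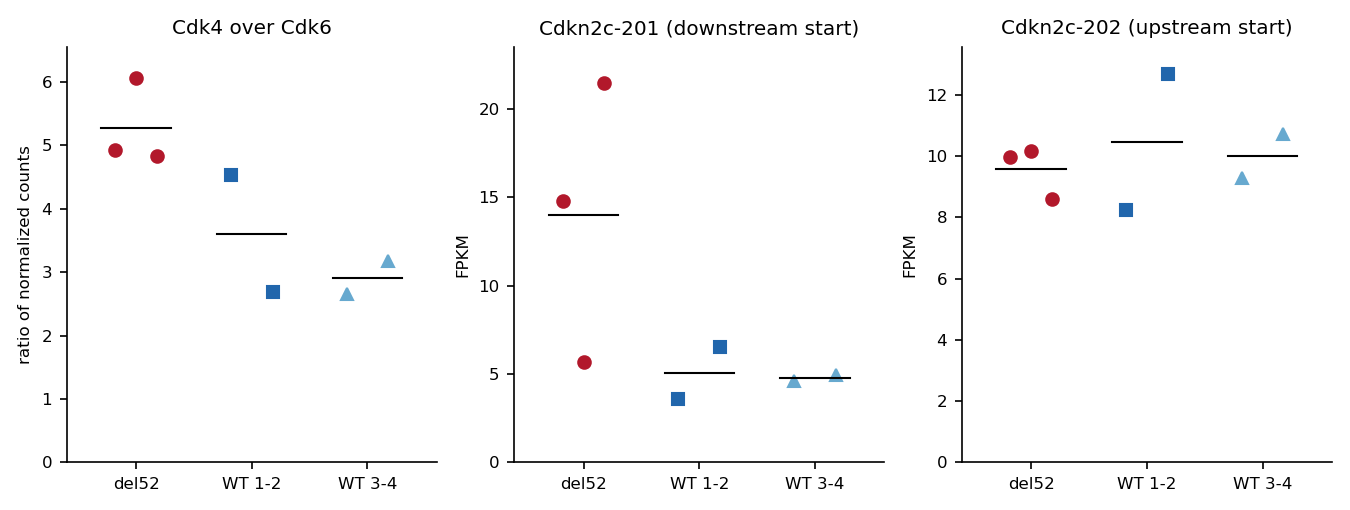
Ratio of Cdk4 to Cdk6 normalized counts (left) and FPKM of Cdkn2c-201 (centre) and Cdkn2c-202 (right) in each library on linear axes from 0 (circles del52 1 to 3, squares wild-type 1 and 2, triangles wild-type 3 and 4; lines are group means). The del52 ratios, 4.83 to 6.07, lie above all wild-type ratios, and del52 1 and 3 carry the higher Cdkn2c-201 values.

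A transcript from each Cdkn1a start followed the gene. Cdkn1a-201, from the downstream start, had 2.04, 10.6 and 2.18 FPKM in del52 1 to 3, against 0.983, 1.54, 11.6 and 19.4 in wild-type 1 to 4. Cdkn1a-202, from the upstream start whose window holds the p53 decamers, had 4.19, 19.5 and 4.56 FPKM in del52 1 to 3, against 4.79, 3.61, 12.2 and 43.9 in wild-type 1 to 4. In both of these transcripts the high libraries were del52 2, wild-type 3 and wild-type 4. Cdkn1a-205, which starts close to Cdkn1a-201, had 2.06, 1.57 and 0.489 FPKM in del52 1 to 3, against 0.352, 1.73, 2.18 and 2.39 in wild-type 1 to 4. There del52 2 lay below del52 1 and wild-type 2. Trp53, which encodes p53, had 10314, 10240 and 12544 normalized counts in del52 1 to 3, against 11445, 10879, 6809 and 7302 in wild-type 1 to 4, with the lowest values in wild-type 3 and 4. Klf4, a zinc-finger factor known to activate Cdkn1a, had 664, 1710 and 750 normalized counts in del52 1 to 3, against 14.2, 56.1, 2684 and 3799 in wild-type 1 to 4. Limma called Klf4 higher against wild-type 1 and 2 (log2 5.01, adjusted p = 0.0158), where 0.318% of all genes were called. It called Klf4 lower against wild-type 3 and 4 (-1.75, adjusted p = 0.00804), where 22.8% of all genes were called lower. Hes1, a Notch target and repressor of cell cycle inhibitors, had 1961, 6111 and 1620 in del52 1 to 3, against 103, 379, 4603 and 7295 in wild-type 1 to 4, and was called higher against wild-type 1 and 2 (log2 3.76, adjusted p = 0.0411). The Hes1 call was lost with edgeR (adjusted p = 0.132) and without del52 1 (limma adjusted p = 0.0600). Trp53, Klf4 and Hes1 were picked from their list of 20 genes after their values had been seen, and their part in the Cdkn1a values was not tested.

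Genes around these members in the pathway were read from 5 lists. None of their genes was called by limma over all 7 libraries, and the 3 genes of smallest p were named from each list. When the length slope was a covariate, limma called 3 of their genes, all higher in del52, where 0.791% of all genes were called, 0.617% higher. These were Ccng2, which encodes cyclin G2 (log2 0.58, limma adjusted p = 0.0370), Hes1 (3.54, adjusted p = 0.00968) and Klf4 (4.55, adjusted p = 0.0125). Against wild-type 1 and 2, which this fit resembles, their log2 differences were 0.59, 3.76 and 5.01. Ccng2 had 2298, 2457 and 1884 normalized counts in del52 1 to 3, against 1459, 1464, 2004 and 2221 in wild-type 1 to 4, and its groups overlapped. Of 20 other G1 and S phase cyclins, kinases and activators, 9 had negative differences and the median log2 difference was 0.08. Cdc25b, a phosphatase that activates CDKs, had 501, 862 and 340 normalized counts in del52 1 to 3, against 808, 793, 1079 and 1112 in wild-type 1 to 4 (log2 -0.83, limma adjusted p = 0.538). Its del52 2 library lay within the wild-type range. Cdk8 and Cdc25a had log2 differences of -0.32 and -0.34 with overlapping groups.

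Of 19 pocket proteins, E2F factors and DREAM subunits, which receive the signal of the D cyclin kinases, 15 had negative differences with a median of -0.38. Groups did not overlap in 6 of them, 5 lower and 1 higher in del52, against 9.57% of all genes tested. E2f8, an atypical E2F that represses its targets, had 316, 552 and 358 normalized counts in del52 1 to 3, against 600, 596, 847 and 1071 in wild-type 1 to 4 (log2 -0.93, limma adjusted p = 0.538). E2f7, its close relative, had 431, 739 and 524 in del52 1 to 3, against 815, 776, 850 and 1188 in wild-type 1 to 4 (log2 -0.70, limma adjusted p = 0.538). Mybl2, a partner of DREAM subunits in late cycle transcription, had 560, 860 and 621 in del52 1 to 3, against 1228, 969, 972 and 1181 in wild-type 1 to 4 (log2 -0.69, limma adjusted p = 0.538). In all 3 genes every del52 library lay below every wild-type library, with del52 2 nearest. The list median was -0.18 against wild-type 1 and 2, -0.47 against wild-type 3 and 4 and -0.12 with the length slope as a covariate.

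Among 31 proliferation genes of S phase and mitosis, 25 had negative differences, with a median log2 difference of -0.31 against 0.0004 over all genes tested. Mki67, which encodes the proliferation antigen Ki-67, had 1506, 1857 and 1446 normalized counts in del52 1 to 3, against 2371, 2311, 2617 and 3445 in wild-type 1 to 4. All del52 libraries lay below all wild-type libraries. Its log2 difference was -0.73 (unadjusted p = 0.00556, limma adjusted p = 0.538), with -0.55 against wild-type 1 and 2 and -0.91 against wild-type 3 and 4. Top2a, the topoisomerase of dividing cells, and Ung, a DNA repair glycosylase, had log2 differences of -0.61 and -0.67, also with del52 below wild-type throughout. These 3 genes, named for their small p, were the only ones of the 31 whose groups did not overlap. Over all genes tested, 4.34% had groups apart with del52 lower. Against wild-type 1 and 2, 31 of 31 genes had negative differences (median -0.45) and 0 were called. Against wild-type 3 and 4, 19 of 31 were negative (median -0.09) and 10 were called, 5 in each direction, where 42.6% of all genes were called. Over all genes tested, 49.99% of differences were negative against wild-type 1 and 2 and 50.2% against wild-type 3 and 4. No test was made between the pairs. Averaged over its genes, each centred on its own mean over the 7 libraries, the list stood at a log2 level of -0.30, 0.11 and -0.31 in del52 1 to 3, against 0.42, 0.19, -0.18 and 0.07 in wild-type 1 to 4, and these groups overlapped.

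Ubiquitin ligases that act on G1 cyclins and inhibitors had 12 of 16 negative differences and a median of -0.25, and 2 had del52 below wild-type throughout, against 4.34% of all genes. Fbxw7, the F-box protein that targets cyclin E, had 297, 299 and 285 normalized counts in del52 1 to 3, against 412, 370, 656 and 637 in wild-type 1 to 4 (log2 -0.77, limma adjusted p = 0.538). Dtl, which directs the degradation of p21 and CDT1, had 2879, 3748 and 2709 in del52 1 to 3, against 4474, 4643, 4147 and 5509 in wild-type 1 to 4 (log2 -0.60, limma adjusted p = 0.538). Rnf123, part of the ligase that acts on p27 in G1, had -0.99 with overlapping groups, of which -0.19 was seen against wild-type 1 and 2 and -1.80 against wild-type 3 and 4. Of 20 transcription regulators of G1 genes, 12 were negative (median -0.09). Sp1, which binds GC boxes, had 481, 498 and 576 in del52 1 to 3, against 600, 653, 1167 and 1163 in wild-type 1 to 4 (log2 -0.72, limma adjusted p = 0.538). Smad3 and Stat5b, the other 2 named from this list, had 0.09 and 0.02 against wild-type 1 and 2 but -2.29 and -1.43 against wild-type 3 and 4.

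**Figure D5:**
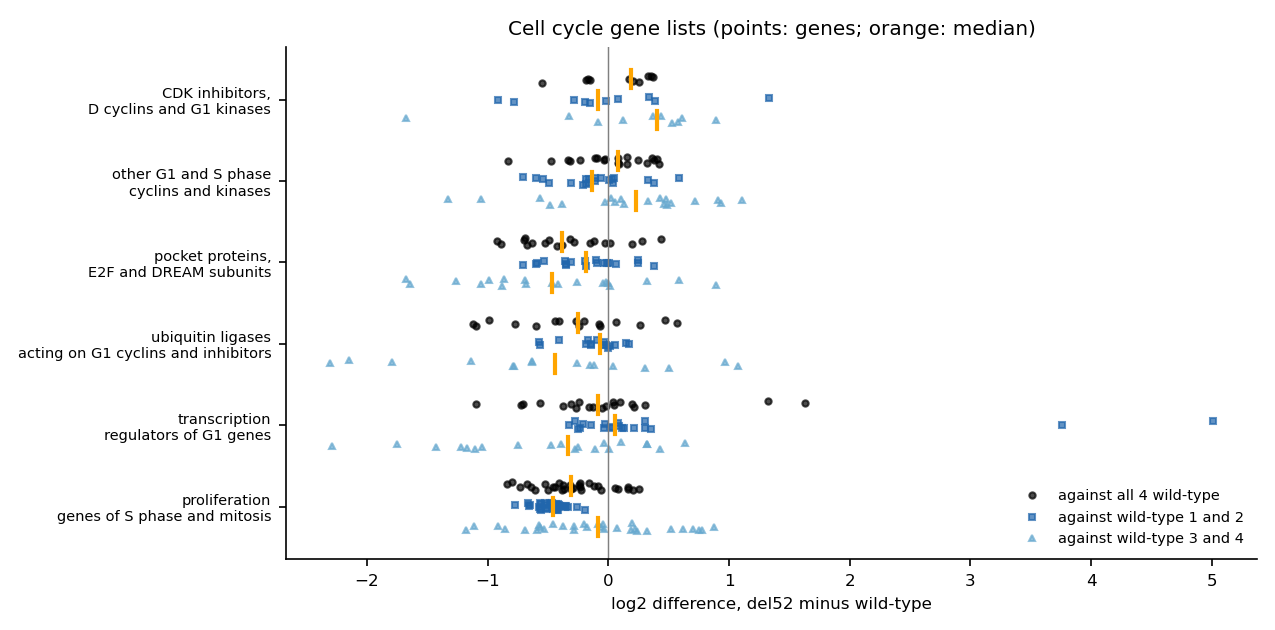
Log2 difference, del52 minus wild-type, of each tested gene in 6 cell cycle lists, against all 4 wild-type libraries (circles), wild-type 1 and 2 (squares) and wild-type 3 and 4 (triangles), with the median of each as an orange bar. The proliferation genes lie to the left of 0 throughout against wild-type 1 and 2, and the widest spread in each list is against wild-type 3 and 4, apart from Klf4 and Hes1.

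The genes whose values over the 7 libraries were most like each member's were found by Pearson's r of log2 values, as a description. These libraries share the split of the wild-type pairs, so high values are common. Ccnd2 was nearest to Naa10 and Timm10 (r of 0.9991 for each), and Cdk4 to Atp5b (0.9988) and Ecsit (0.997). Cdkn1a was nearest to Itga3 (0.997) and Fam110a (0.995). Ccnd1 was nearest to Rbpms2 (0.990) and Gm7327 (0.988), and Ccnd3 to Bysl (0.992) and Plk4 (0.987). Cdkn2d was nearest to Hoxa7 (0.994) and Gm49783 (0.993), and Cdkn1b to Prss41 (0.984) and Gm47447 (0.979). The members with the lowest such values were Cdk6, nearest to Btnl9 (0.973) and Gm38142 (0.968), Cdkn1c, nearest to Zdhhc20 (0.970) and Pomgnt2 (0.964), and Cdkn2c, nearest to Clca3a1 (0.968).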

How the data were processed

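RNA of sorted cells was amplified as cDNA and sequenced without strand information, per the labels, so overlapping or antisense genes cannot be told apart. The submitters' processing notes name the build GRCm38, the aligner STAR 2.7.3a, the counter HTSeq 0.6.1, DESeq2 1.12.4 and, for transcripts, Cufflinks 2.2.1. The deposited gene table holds a signal that the authors describe as normalized counts. It is a table of whole reads divided by a size factor of each library: 100% of values were whole multiples of 1 step per library within 0.01 reads. The second deposited table holds FPKM per transcript, estimated by the authors for 66660 transcripts.

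A gene entered the test if 3 or more libraries had a normalized count of 10 or more (16047 genes). The two-sided test was limma's (version 3.58.1, R 4.3.3) with a trended variance and without covariates, on log2 of the normalized count plus 1, at a Benjamini-Hochberg adjusted p of 0.05. The same genes were tested against each wild-type pair. Fold changes on this scale understate those of low genes. For transcripts the test was on log2 of FPKM plus 1, for the 30156 that reached an FPKM of 1 in 3 libraries. Means are followed by the SD. EdgeR 4.0.16 and DESeq2 1.42.0 were run on the recovered reads as alternatives, beside other pseudocounts, filters and scalings, a covariate for exonic length, and libraries left out. No 2 libraries of a group agreed within counting noise. The fits were run on simulated reads with known changes. These reads had the same dispersion for every gene, no difference between the wild-type pairs and no length slope. How the fits behave with such differences was therefore not tested. Positions and exonic lengths are from GENCODE for GRCm38, which matched 97.9% of genes.

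The members and lists were chosen with earlier results of these data known. Besides the members, Calr and the sort markers, the rule named from each of 5 cell cycle lists any gene called or else the 3 of smallest p, and for each member the 2 genes of highest r. A gene that the rule names is not reported here. Cdkn2a, Cdkn2b and Ccna1 were not analysed here. Marker lists of 9 cell types were summed per library. Macrophage markers summed to 583 to 770 normalized counts in del52 and 555 to 864 in wild-type, megakaryocyte markers to 5086 to 10537 in del52 and 5798 to 18849 in wild-type, and mast cell and basophil markers to 58.9 to 138 in del52 and 86.5 to 169 in wild-type. Erythroid markers, mostly Car2, summed to 55033 to 68859 in del52 and 34135 to 54070 in wild-type, and multipotent progenitor markers, mostly Cd34, to 8234 to 12795 in del52 and 8296 to 12088 in wild-type.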

Additional observations from a re-analysis of the deposited data

Results flagged for a closer look

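Ung, a DNA repair glycosylase of the proliferation list, had 340 normalized counts in wild-type 1, against 264, 254 and 265 in wild-type 2 to 4. The gap of wild-type 1 to the nearest other library was 0.865 of the range of the group, above Dixon's 95% critical value for a group of 4. It was the 1 such case among 56 groups of values examined, where chance gives about 1 in 20.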

How the results depend on the processing

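The number of genes called over all 7 libraries was 0. It was 107 with DESeq2 (47 higher, 60 lower), 127 with the length slope as a covariate (99 higher, 28 lower), 6010 within the title series and 1022 outside it, a fit in which the lone del52 library is taken to have the spread of wild-type 1 and 2. Against wild-type 1 and 2 it was 51, with 21 by edgeR and 24 to 769 with 1 del52 library left out. Against wild-type 3 and 4 it was 6828, with 4254 (without del52 1) to 8760 when 1 was left out. Transcripts called were 0, with 3 without a filter, 0 to 1 with any 1 library left out, 2 when wild-type 3 and 4 were dropped, and 6778 when wild-type 1 and 2 were dropped. For Calr, summed FPKM gave -0.13 (exact permutation p = 0.0286).

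Of the 10 members, 5 kept their sign in all 18 alternatives: Cdkn1b, Cdkn1c, Cdkn2c, Ccnd3 and Cdk6. With the length slope the sign turned for Cdkn1a (1.33), Cdkn2d (-0.011), Ccnd2 (-0.12), Cdk4 (-0.13), Kit (0.035) and Ly6a (-0.083). The same genes turned against wild-type 1 and 2, a comparison that the slope fit resembles. Within the title series it turned for Ccnd1 (0.51) and Cd48 (0.24), outside it for Cdkn1a (0.34) and Cdk4 (-0.096), and with quantile normalization for Cdk4 (-0.0070). With 1 library left out, Cdkn1a ran from -0.83 to 0.46, Ccnd1 from -0.54 to 0.15 and Cd48 from -0.26 to 0.046. Against wild-type 1 and 2, Cdkn1b ran from -0.097 to 0.22 and Cdkn2d from -0.079 to 0.059, and against wild-type 3 and 4 Cdkn1c ran from -0.018 to 0.28. Among transcripts, leaving out wild-type 3 and 4 gave -0.11 for Ccnd2-201, -0.13 for Ccnd2-206, 1.10 for Cdkn1a-201 and 0.70 for Cdkn1a-202. With 1 library left out, Cdkn1a-201 ran from -0.95 to 0.27, Cdkn1a-202 from -1.06 to 0.25 and Cdkn2c-202 from -0.16 to 0.024. The cause was not tested. No paired analysis was possible because no number in the titles is shared between the groups. The lowest value of any member in a library was 196 normalized counts.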

Other observations

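Cdk4-202, a transcript below the filter on low values, had 2.28, 0.538 and 1.08 FPKM in del52 1 to 3, against 5.14e-05, 5.80e-05, 3.37e-05 and 3.26e-05 in wild-type 1 to 4. It was picked after its values had been seen, and the values come from the authors' assignment of reads among overlapping transcripts.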
